A study of Mus musculus with 96 samples.

Results

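The 10 genes below are those of the lipid droplet surface and of droplet turnover. They were 10 of the 25095 gene symbols of the expression tables: Plin2, Plin4, Plin5, Cidea, Cideb, Cidec, Fitm1, Fitm2, G0s2 and Pnpla2. They were chosen by symbol, from what their products are known to do. Where a symbol had several RefSeq transcripts, the transcript with the highest mean in a table was used.

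Lipid droplets store neutral lipid, mainly triglyceride and cholesteryl ester, inside a single phospholipid layer. In hepatocytes they fill when fatty acid supply and synthesis exceed oxidation and secretion, which is what is seen as fatty liver. Perilipins coat the droplet and gate access of lipases, CIDE proteins move lipid between droplets and onto lipoprotein particles, FIT proteins act when droplets form at the endoplasmic reticulum, and adipose triglyceride lipase (encoded by Pnpla2) with its inhibitor G0S2 sets the rate at which triglyceride is broken down.

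Bulk RNA-Seq of isolated mouse liver cells was used, from 96 libraries of adult male C57BL/6J mice that had eaten a high-fat, high-sucrose diet for 4 weeks. Hepatocytes and liver macrophages were taken at zeitgeber times ZT4 and ZT10 (lights on) and ZT16 and ZT22 (lights off), with 3 libraries per genotype, cell type and time. The 4 genotypes were Control, RevDKO (labelled ReverbhDKO, loss of REV-ERBα and REV-ERBβ in hepatocytes), RevScapTKO (labelled Reverb/ScaphTKO, loss of both REV-ERBs and SCAP) and ScapKO (labelled ScaphKO, loss of SCAP). REV-ERBα and REV-ERBβ, encoded by Nr1d1 and Nr1d2, are repressors of the circadian clock, and SCAP is the escort protein that SREBP transcription factors need for activation. Per the methods of the study, floxed Rev-erbα, Rev-erbβ and, for the triple knockout, Scap alleles were cut in adult mice by AAV-TBG-CRE, a virus whose TBG promoter drives CRE in hepatocytes, and control mice received AAV-TBG-GFP. Macrophages of RevDKO and RevScapTKO mice were therefore not the targeted cells. The paper names ScapKO as a hepatocyte-specific knockout, but its methods do not describe these mice separately.

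Values are RPKTM, that is, RPKM values (read counts scaled to transcript length and library size) multiplied by 10, quantile-normalized so that all libraries of a table hold the same set of values. Control, RevDKO and RevScapTKO share a table of 36 libraries per cell type, and ScapKO was normalized in a table of its own, so ScapKO is described only within itself. Read depth is unknown, since the tables keep no counts. Nothing in the labels says that libraries came from separate animals, so p-values measure the spread between libraries. With at least 3 libraries above 5 RPKTM asked for, 9 of the 10 genes could be tested in each 36-library table, with Cidea left out. Mean levels over the 4 times were compared with limma on log2(RPKTM + 1), and adjusted p is Benjamini-Hochberg over the 13326 hepatocyte or 13947 macrophage genes that passed. The 3 contrasts among Control, RevDKO and RevScapTKO share libraries, so they are not independent of each other.

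Several series-wide values bear on these genes. In the hepatocyte libraries labelled RevDKO, the transcript levels of the targeted genes were not lower than in Control: Nr1d1 averaged 138 against 90.7 RPKTM and was higher by 1.55 on the log2 scale (limma adjusted p = 8.9e-05), and Nr1d2 averaged 312 against 228 RPKTM. The values are levels over whole transcripts and not per exon, so loss of the floxed exons was not tested. The reason for the higher Nr1d1 level was not tested either, and RevDKO below means the libraries so labelled. Scap was lower in all 12 RevScapTKO hepatocyte libraries (82.8 to 299 RPKTM) than in any Control library (395 to 698 RPKTM). RNA of other cells was present in both preparations. The summed level of 12 macrophage markers in hepatocyte libraries had a median of 906 RPKTM in Control (247 to 3239.9), 1119.6 in RevDKO (409 to 2488) and 3021 in RevScapTKO (981 to 6429), and all 12 passed the test as higher in RevScapTKO than in each of the other genotypes, as did 4 of 5 stellate cell markers. In Control it was also lowest at ZT4 (247 to 686 RPKTM) and highest at ZT22 (2241 to 3239.9). Macrophage libraries carried 10 hepatocyte markers at summed levels of 30594 RPKTM or more. In bulk RNA, fewer cells of a type and less RNA per cell cannot be told apart. Adipocyte markers were near 0 in the hepatocyte libraries: the 4 markers summed to at most 14.7 RPKTM.

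In Control hepatocytes the levels per transcript length ran, from high to low, Plin2, Cideb, G0s2, Plin5, Fitm2, Plin4, Pnpla2, Fitm1, Cidec and Cidea. Plin2, with a mean of 847 RPKTM, was above Cideb (321 RPKTM) in 12 of 12 libraries. Plin4 and Pnpla2, at 80.3 and 65.9 RPKTM, did not separate, with Plin4 higher in 7 of 12 libraries, and Fitm2 (94.2 RPKTM) was above Plin4 in 9 of 12. Fitm1 at 37.6 RPKTM was above Cidec at 7.9 RPKTM in every Control library. Cidea was at or near 0: no library of either cell type reached 5 RPKTM, and its highest value was 3.5 RPKTM, in a Control macrophage library. Cidea encodes the CIDE protein of brown fat, and no difference between genotypes was tested for it.

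**Figure D1:**
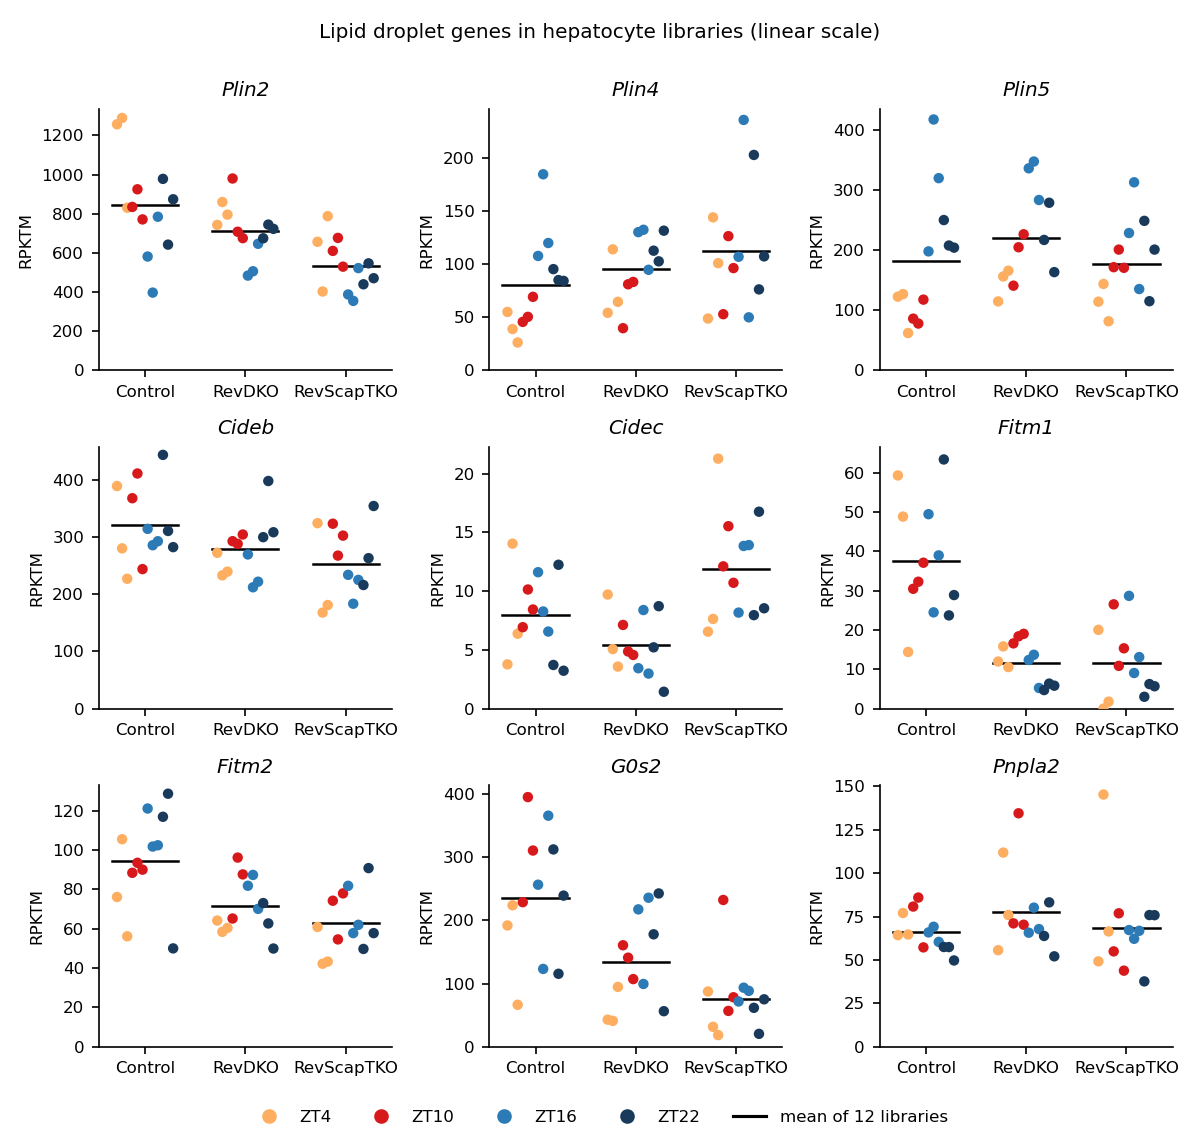
Level of the 9 tested lipid droplet genes in hepatocyte libraries (vertical axis, RPKTM, linear from 0) by genotype (horizontal axis), 1 point per library coloured by zeitgeber time, with a line at the mean of 12 libraries. Fitm1 points of RevDKO lie between 4.7 and 19.0 RPKTM against 14.4 to 63.4 in Control, and Plin2 and G0s2 means are lowest in RevScapTKO, at 532 and 76.3 RPKTM.

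The first comparison asked what loss of the REV-ERBs in hepatocytes went with. Of the 9 genes, 1 was called between RevDKO and Control hepatocytes, Fitm1, and it was lower. Across all tested genes 4.43% were called, 2.43% as lower. The median log2 difference of the 9 genes was -0.21, against -0.01 over all genes tested. The other 8 differences ran from -0.88 (G0s2) to 0.40 (Plin5) on the log2 scale.

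The second comparison set RevScapTKO against RevDKO, that is, the further loss of SCAP. Here 3 of 9 genes were called: Plin2 and G0s2 were lower and Cidec was higher. This is near the background, since 26.2% of all tested genes were called, 12.7% as lower and 13.5% as higher. Against Control, 5 of 9 genes were lower in RevScapTKO (Plin2, Cideb, Fitm1, Fitm2 and G0s2) and 0 higher, where 35.9% of all genes were called and 18.7% were lower. With the macrophage marker score of each library as a covariate, calls over all genes dropped from 3498 to 309 and from 4789 to 732 in these 2 contrasts, and among the 9 genes Plin2 alone stayed called, in both. The markers were themselves higher in RevScapTKO, so genotype and score are partly confounded. The covariate also widened the SE in RevScapTKO minus RevDKO, from 0.12 to 0.16 for Plin2 and from 0.25 to 0.36 for Cidec. A call lost with the covariate can therefore reflect lost power, and the fit cannot separate genotype from macrophage RNA. In 13 hepatocyte libraries (6 Control, 1 RevDKO and 6 RevScapTKO) the albumin gene Alb was 1 of the 2 highest values. A fit without them left 1 library in some groups, such as Control ZT10, so it cannot say which calls hold. Its log2 difference for Fitm1 in RevDKO minus Control was -1.50. In RevScapTKO minus RevDKO its differences for the called genes were -0.44 (Plin2), -0.69 (G0s2) and 0.98 (Cidec). In RevScapTKO minus Control they were -0.82 (Plin2), -0.31 (Cideb), -1.65 (Fitm1), -0.29 (Fitm2) and -1.75 (G0s2). The values with the covariate therefore stand beside the called differences below.

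**Figure D2:**
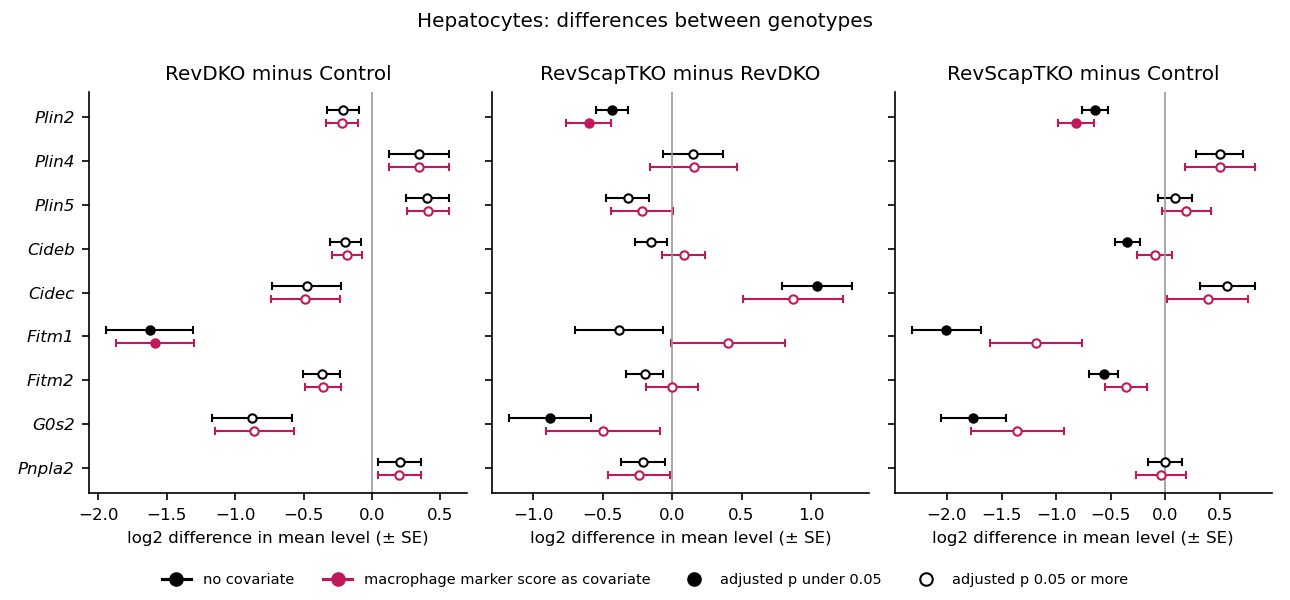
Log2 difference in mean hepatocyte level (horizontal axis, bars ± SE from limma) for 9 genes (vertical axis) in 3 genotype contrasts, without (black) and with (pink) the macrophage marker score as a covariate, filled where adjusted p was under 0.05. Plin2 stays filled in both RevScapTKO contrasts and Fitm1 in RevDKO minus Control, while the other filled black points are open with the covariate.

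Plin2 encodes perilipin 2, the constitutive droplet coat protein of hepatocytes, whose level follows the lipid load of the cell. Its hepatocyte level ranged from 397 to 1289.5 RPKTM in Control (median 833), from 484 to 980.3 in RevDKO (median 716) and from 355 to 788 in RevScapTKO (median 526). The ranges overlapped, but all 12 RevScapTKO libraries lay below the Control median and 5 of 12 lay below the whole RevDKO range. The difference was -0.43 ± 0.12 on the log2 scale (SE) against RevDKO (limma adjusted p = 0.0067) and -0.64 ± 0.12 against Control (limma adjusted p = 8.1e-05). It had the same sign at all 4 times in both contrasts. With the macrophage marker covariate it was -0.60 (limma adjusted p = 0.038) and -0.82 (limma adjusted p = 0.0015). RevDKO against Control gave -0.21 ± 0.12 (limma adjusted p = 0.37).

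The Plin2 gene lies on the minus strand at chr4:86302469-86315963 (mm9). Its promoter is shown because, of the 9 members with a listed promoter, Plin2 alone held a letter match to any of 5 motifs searched on both strands. Those of Fitm1 and G0s2 are shown beside it as the genes with the largest differences from Control. The sequences are the 250 bases before the RefSeq start site on the gene strand, 5′ to 3′, in GRCm38.p6, with matches in capitals; coordinates of this build are not those of mm9.
Plin2 (chr4:86670060-86670309, minus strand): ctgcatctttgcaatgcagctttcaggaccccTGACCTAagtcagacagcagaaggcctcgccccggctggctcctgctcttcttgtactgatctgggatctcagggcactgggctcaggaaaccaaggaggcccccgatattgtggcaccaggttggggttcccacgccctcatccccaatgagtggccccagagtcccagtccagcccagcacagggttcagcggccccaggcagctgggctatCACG
Fitm1 (chr14:55575424-55575673, plus strand): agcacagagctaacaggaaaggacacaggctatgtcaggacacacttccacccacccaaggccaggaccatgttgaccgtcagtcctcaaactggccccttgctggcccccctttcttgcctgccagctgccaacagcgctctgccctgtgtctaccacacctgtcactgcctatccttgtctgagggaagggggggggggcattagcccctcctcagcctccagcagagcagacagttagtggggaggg
G0s2 (chr1:193273189-193273438, minus strand): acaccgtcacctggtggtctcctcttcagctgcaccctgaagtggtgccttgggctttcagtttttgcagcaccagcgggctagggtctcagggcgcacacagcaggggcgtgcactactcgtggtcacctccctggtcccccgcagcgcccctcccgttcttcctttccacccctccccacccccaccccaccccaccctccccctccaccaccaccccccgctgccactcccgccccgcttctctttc

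In the Plin2 sequence, TGACCTA at -218 from the start site is TAGGTCA on the other strand, the core bound by REV-ERB and ROR receptors, and the final CACG opens a CACGTG E-box, the element of CLOCK and BMAL1, that spans the start site from -4. Shares were counted over 32851 RefSeq promoter windows of 250 bases before to 50 after the start, of which 2.61% held TAGGTCA and 7.15% held CACGTG. None of the 9 members' promoters held the sterol element TCACNCCAC (1.24% of all promoters), the D-box TTATGTAA (0.938%) or the DR1 element of PPARs (0.381%). A match is a description of letters, and the absence of one covers only these windows.

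Plin4 and Plin5 encode perilipins 4 and 5. Perilipin 4 coats small nascent droplets, and perilipin 5 belongs to oxidative tissues and ties droplets to mitochondria. The genes are neighbours on chromosome 17, on the minus strand and 1798 bp apart (Plin4 chr17:56240014-56249225 and Plin5 chr17:56251024-56256971, mm9). Neither was called in a genotype contrast. Plin4 ranged from 26.3 to 185 RPKTM in Control hepatocytes (median 76.9), 39.8 to 133 in RevDKO (median 98.8) and 48.9 to 236 in RevScapTKO (median 104). Its largest difference was 0.50 ± 0.22 on the log2 scale, RevScapTKO minus Control (limma adjusted p = 0.072), and it passed the test without RevScapTKO ZT4 replicate 1, ZT10 replicate 1, ZT16 replicate 3 or ZT22 replicate 2 (limma adjusted p = 0.017 to 0.043). Plin5 ranged from 62.1 to 417 RPKTM in Control (median 162), 115 to 347 in RevDKO (median 211) and 81.7 to 313 in RevScapTKO (median 171). The ranges overlapped, with 2 of 12 RevScapTKO libraries below the RevDKO range (RevScapTKO minus RevDKO -0.32 ± 0.16 on the log2 scale, limma adjusted p = 0.13). Plin5 in RevDKO minus Control was 0.40 ± 0.16 on the log2 scale (limma adjusted p = 0.15). With the marker covariate, Plin4 in RevScapTKO minus Control was at 0.50 (limma adjusted p = 0.44), and Plin5 was at 0.41 in RevDKO minus Control (limma adjusted p = 0.13) and -0.22 in RevScapTKO minus RevDKO (limma adjusted p = 0.81).

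Of the CIDE genes, Cideb is the hepatocyte member, whose product loads lipid onto very low density lipoprotein. It was lower in RevScapTKO than in Control by a log2 difference of -0.35 ± 0.11 (limma adjusted p = 0.018), with ranges of 168 to 354 RPKTM (median 249) and 227 to 444 RPKTM (median 302). The groups overlapped, with 5 of 12 RevScapTKO libraries below the Control range, and with the marker covariate the difference was -0.10 (limma adjusted p = 0.81). The transcript (chr14:56372892-56377261, mm9, minus strand) shares 1580 bp with Nop9 on the opposite strand. Nop9 had a mean of 320.3 RPKTM in Control against 321 for Cideb, and the r of the 2 genes was 0.97 over 36 libraries. The libraries were made with a strand-specific kit, but whether the counting used strand is not given in the sources used here, so reads of Cideb and Nop9 cannot be told apart.

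Cidec encodes the droplet fusion protein of fat cells, FSP27, and was low in hepatocytes. It was 1.4 to 9.7 RPKTM in RevDKO (median 5.0), 3.2 to 14.0 in Control (median 7.6) and 6.6 to 21.3 in RevScapTKO (median 11.4). All 12 RevScapTKO libraries were above the RevDKO median and 7 of 12 were above its range. RevScapTKO was higher than RevDKO by 1.04 ± 0.25 on the log2 scale (limma adjusted p = 0.0028), in the same direction at all 4 times, and by 0.87 with the marker covariate (limma adjusted p = 0.30). Against Control the difference was 0.57 ± 0.25 (limma adjusted p = 0.079), which passed the test without Control ZT4 replicate 2, Control ZT22 replicate 2 or RevScapTKO ZT4 replicate 1 (limma adjusted p = 0.028 to 0.048) and was 0.39 with the covariate (limma adjusted p = 0.65).

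Fitm1 and Fitm2 encode the FIT proteins, of which FITM1 is best known from skeletal muscle and FITM2 is widely expressed. Fitm1 (chr14:56194511-56195789, mm9, plus strand) ranged from 14.4 to 63.4 RPKTM in Control hepatocytes (median 34.7), 4.7 to 19.0 in RevDKO (median 12.2) and 0.012 to 28.7 in RevScapTKO (median 9.97). In both knockouts 8 of 12 libraries lay below the whole Control range and 12 of 12 lay below its median. RevScapTKO was uneven at ZT4, with libraries at 20.0, 0.012 and 1.8 RPKTM. At ZT22 the 3 Control libraries were at 63.4, 23.7 and 28.9 RPKTM, the RevDKO libraries at 4.7, 6.4 and 5.8, and the RevScapTKO libraries at 3.0, 6.2 and 5.7. Control did not overlap with either knockout at that time, while the 2 knockouts overlapped each other, and at ZT10 every Control library (30.5, 32.3 and 37.1 RPKTM) was also above every RevDKO library (16.6, 18.4 and 19.0).

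Over all times Fitm1 was lower in RevDKO than in Control by a log2 difference of -1.63 ± 0.32 (limma adjusted p = 0.0012), and with the marker covariate it was -1.59 (limma adjusted p = 0.00044). In RevScapTKO minus Control it was -2.005 ± 0.32 (limma adjusted p = 1.4e-05), a value that became -1.18 with the covariate (limma adjusted p = 0.10). RevScapTKO and RevDKO were not separated (-0.38 ± 0.32 on the log2 scale, limma adjusted p = 0.39). That difference passed the test without RevScapTKO ZT4 replicate 1 (-0.68, limma adjusted p = 0.030) and took the other sign with the covariate (0.40, limma adjusted p = 0.81). Skeletal muscle markers, from the tissue where Fitm1 is abundant, summed to at most 3.5 RPKTM over 4 genes in these hepatocyte libraries. Fitm2 moved less: its ranges were 50.01 to 129 RPKTM in Control (median 97.6), 49.9 to 96.1 in RevDKO (median 67.6) and 42.2 to 90.8 in RevScapTKO (median 59.3). All 12 RevScapTKO libraries were below the Control median, and the log2 difference was -0.57 ± 0.14 (limma adjusted p = 0.0016), or -0.36 with the covariate (limma adjusted p = 0.34). RevDKO against Control gave -0.37 ± 0.14 (limma adjusted p = 0.13), or -0.48 without Control ZT22 replicate 3 (limma adjusted p = 0.012).

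G0s2 encodes the inhibitor of adipose triglyceride lipase, and Pnpla2 the lipase itself. G0s2 (chr1:195098354-195099382, mm9, minus strand) ranged from 66.4 to 395 RPKTM in Control hepatocytes (median 234), 41.0 to 242 in RevDKO (median 124) and 18.6 to 232 in RevScapTKO (median 73.4). The medians stepped down, and all 12 RevScapTKO libraries were below the Control median, although 1 of them, at ZT10, reached 232 RPKTM. The log2 difference was -1.76 ± 0.29 in RevScapTKO minus Control (limma adjusted p = 3.0e-05) and -0.88 ± 0.29 in RevScapTKO minus RevDKO (limma adjusted p = 0.026). With the marker covariate these were -1.35 (limma adjusted p = 0.054) and -0.49 (limma adjusted p = 0.75). RevDKO minus Control was also -0.88 ± 0.29 but missed the threshold (limma adjusted p = 0.088); it passed when only the 2 genotypes entered the fit (limma adjusted p = 0.043) or without Control ZT4 replicate 3 (limma adjusted p = 0.034). The call against RevDKO was lost on leaving out any 1 of 5 libraries, RevDKO ZT4 replicate 3, RevDKO ZT22 replicate 2, and RevScapTKO ZT4 replicate 3, ZT10 replicate 2 and ZT22 replicate 2 (limma adjusted p = 0.053 to 0.064), and with no filter on low genes (limma adjusted p = 0.064).

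Pnpla2 (chr7:148641087-148646642, mm9, plus strand, RefSeq NR_028142, a transcript of the gene annotated as non-coding) was not called in any hepatocyte contrast. Its level ranged from 49.7 to 86.0 RPKTM in Control (median 64.5), 52.1 to 135 in RevDKO (median 70.7) and 37.7 to 145 in RevScapTKO (median 66.6), and its log2 differences lay between -0.21 and 0.20, or -0.24 and 0.20 with the marker covariate. Whether the lipase and its inhibitor G0s2 responded differently was not tested.

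Other genes of the same functions were counted from lists. Among 18 tested of 19 other droplet proteins, 0 were higher and 2 lower in RevDKO than in Control, Hsd17b11, a droplet dehydrogenase (log2 difference -0.54), and Pcyt1a, the rate-limiting enzyme of phosphatidylcholine synthesis (-0.26). In RevScapTKO against RevDKO 1 was higher, Hsd17b13 (0.78), and 8 were lower, among them Acsl3, which activates fatty acids on nascent droplets (-3.72), Pnpla3 (-2.66) and the ubiquitous perilipin Plin3 (-0.56). Against Control 1 was higher and 10 were lower, where 17.3% of all genes tested were higher and 18.7% lower. With the macrophage marker covariate the counts were 0 higher and 2, 3 and 6 lower in the 3 contrasts. The median log2 difference of this list was -0.10, -0.26 and -0.39 in the 3 contrasts, against -0.01, -0.03 and -0.04 over all genes.

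Of 12 SREBP targets in hepatocytes, 0 were called in RevDKO against Control and 12 were lower in RevScapTKO against each of the others, with Scd1 at -8.91 on the log2 scale against RevDKO. The same counts, 0, 12 and 12, were lower with the marker covariate. Of 12 PPARα targets, genes of fatty acid oxidation, 7 were lower in RevDKO than in Control, among them Acot1 (-2.62) and Cyp4a10 (-1.73), and 0 were higher. In RevScapTKO 2 were higher and 6 lower than in RevDKO, and 1 was higher and 6 lower than in Control. With the covariate 7, 4 and 6 were lower in the 3 contrasts and 0 higher. Of 9 lipid-sensing regulators, Ppard was higher (2.10) and Pparg lower (-1.03) in RevDKO than in Control, 0 were higher and 4 lower in RevScapTKO than in RevDKO, and 0 were higher and 5 lower than in Control. With the covariate the regulators had 1, 0 and 0 higher and 2, 3 and 3 lower. Over all genes tested the shares lower were 2.43%, 12.7% and 18.7% in the 3 contrasts, or 2.90%, 1.79% and 3.63% with the covariate. The shares higher were 1.996%, 13.5% and 17.3%, or 2.46%, 0.533% and 1.86% with the covariate.

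Time of day was examined with JTK_CYCLE, a rank test for periodic patterns, run as the study did with each series entered 2 times. Entering a series 2 times makes p smaller without adding data, so the count with the series entered once stands beside it. A gene was called at an adjusted p under 0.05, a best period of 24 h and a ratio of highest to lowest time mean over 1.5. The periods tried were 18 h and 24 h, and the study accepted periods from 21 to 24 h. Only genes expressed in a genotype, with at least 2 libraries above 5 RPKTM, entered the counts, which leaves out Cidea throughout. In Control hepatocytes 3 of 9 expressed members were called, Plin2, Plin4 and Plin5, or 1 with the series entered once (Plin4), where 27.5% and 10.8% of all expressed genes were. In RevDKO 4 of 9 were called, Plin4, Plin5, Fitm1 and G0s2, or 2 once (Plin5 and Fitm1), against 27.9% and 9.61% of expressed genes. In RevScapTKO 2 of 9 were called, Plin5 and Fitm1, or 0 once, against 18.3% and 3.43%.

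Plin2 was highest in the light in Control. Its libraries were at 1257, 1289.5 and 831 RPKTM at ZT4 and at 582, 397 and 785 RPKTM at ZT16, so that all 3 ZT4 libraries were above all 3 ZT16 libraries. The ratio of highest to lowest time mean was 1.91 in Control, 1.46 in RevDKO and 1.46 in RevScapTKO, and in the last 2 the ratio missed 1.5 while the JTK_CYCLE adjusted p was 0.00047 and 0.0072. The Control rhythm passed a limma F test of the 24 h terms (adjusted p = 0.022), also with the macrophage marker score as a covariate (adjusted p = 0.033).

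Plin4 and Plin5 peaked in the dark, opposite to Plin2. Control Plin5 libraries were at 86.1, 77.9 and 118 RPKTM at ZT10 and at 198, 417 and 319.7 RPKTM at ZT16, without overlap, a ratio of 3.32. Control Plin4 libraries were at 55.1, 39.0 and 26.3 RPKTM at ZT4 and at 108, 185 and 120.1 RPKTM at ZT16, also without overlap, a ratio of 3.43. In limma the Control rhythm passed for Plin5 (adjusted p = 0.00045, or 0.016 with the marker covariate) and for Plin4 (adjusted p = 0.014, but 0.13 with the covariate).

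In RevDKO the Plin5 ZT16 libraries were at 336, 347 and 283 RPKTM, close to Control, while its ZT10 libraries, at 141, 205 and 226 RPKTM, were all above the 3 Control ZT10 libraries. The ratio of highest to lowest mean was 2.21 in RevDKO and 1.99 in RevScapTKO. RevScapTKO Plin4 had no call. On leaving out each of the 12 libraries of a genotype in turn, the Control calls of Plin2, Plin4 and Plin5 and the RevDKO calls of Plin4, Plin5 and Fitm1 held in 12 of 12 cases, that of RevDKO G0s2 in 10, and the RevScapTKO calls of Plin5 and Fitm1 in 9 and 6. No difference in 24 h rhythm passed the limma F test for any of the 9 genes in RevDKO against Control, where 0.203% of all genes passed, in RevScapTKO against RevDKO, where 0.0% did, or in RevScapTKO against Control, where 0.188% did. The smallest unadjusted p in limma were 0.052 for Plin5 in RevDKO minus Control (adjusted p = 0.9999), 0.040 for Fitm1 in RevScapTKO minus RevDKO (adjusted p = 0.94) and 0.012 for Plin5 in RevScapTKO minus Control (adjusted p = 0.50), where Fitm1 had 0.023 (adjusted p = 0.60). A rhythm called in 1 genotype and not in another is therefore not shown to differ.

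**Figure D3:**
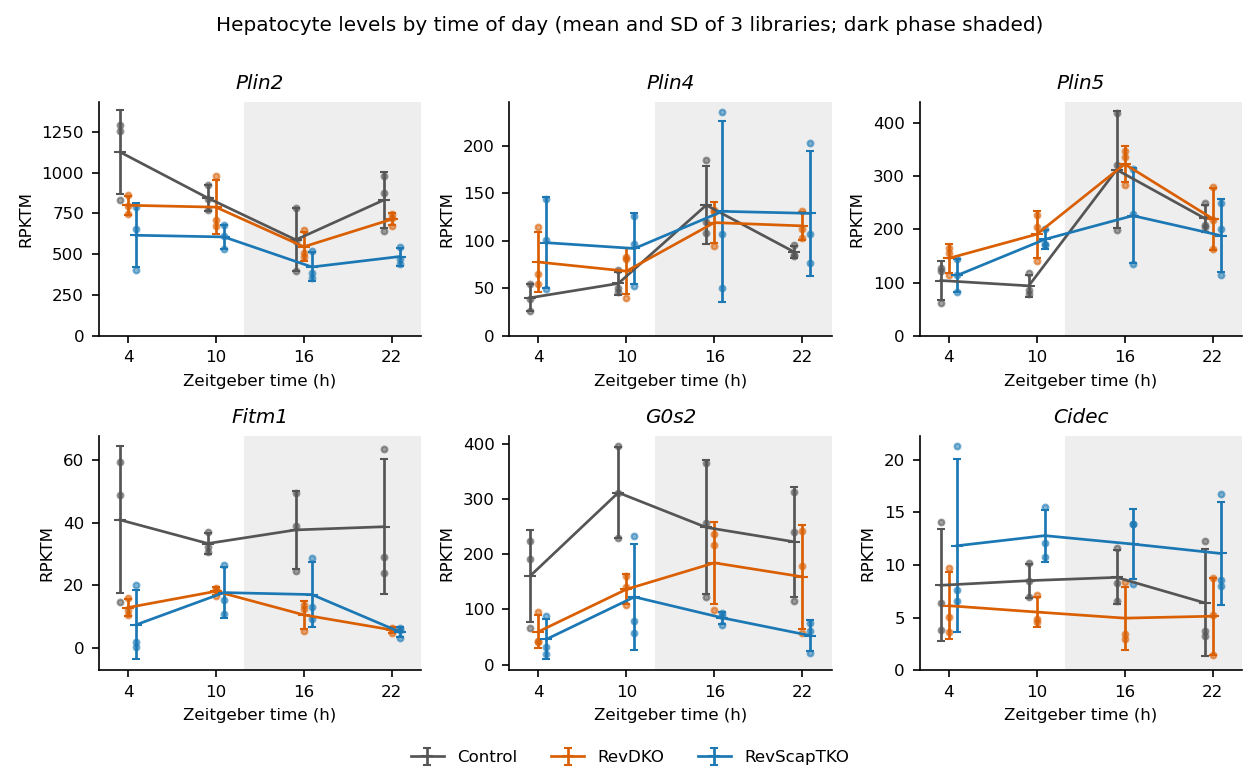
Hepatocyte level (vertical axis, RPKTM) of 6 lipid droplet genes against zeitgeber time (horizontal axis, hours; dark phase shaded) in Control, RevDKO and RevScapTKO, with small points for libraries and lines and bars for the mean and SD of 3. Plin2 is highest in the light and Plin4 and Plin5 at ZT16, the Control Fitm1 line lies above both knockout lines at every time, and RevScapTKO Cidec means are above RevDKO at every time.

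Fitm1 and G0s2 had no called rhythm in Control hepatocytes (ratios of 1.23 and 1.94). In RevDKO Fitm1 ran from 16.6, 18.4 and 19.0 RPKTM at ZT10 to 4.7, 6.4 and 5.8 at ZT22, a ratio of 3.19 with no overlap. RevDKO G0s2 was lowest at ZT4, at 43.0, 41.0 and 94.7 RPKTM, against 217, 99.4 and 236 RPKTM at ZT16, a ratio of 3.09. In the limma F test neither RevDKO rhythm passed (adjusted p = 0.26 for Fitm1 and 0.19 for G0s2). In RevDKO libraries too the summed macrophage marker level was lower at ZT4 (483 to 822 RPKTM) than at ZT22 (1622 to 2488), and with the marker score as a covariate the adjusted p was 0.70 for Fitm1 and 0.20 for G0s2. The RevScapTKO Fitm1 rhythm had a limma adjusted p of 0.079, or 0.027 with the covariate.

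Macrophage libraries form a table normalized on its own, so their levels were not compared with those of hepatocytes. Plin2 was again the highest member per length, with 172 to 362 RPKTM in Control (median 285), 148 to 354 in RevDKO (median 255) and 106 to 338 in RevScapTKO (median 186). Control means were 62.4 RPKTM for Plin5, 51.0 for Pnpla2, 47.1 for Cideb, 38.5 for G0s2, 30.8 for Plin4, 9.1 for Fitm2, 3.5 for Fitm1 and 1.1 for Cidec. Libraries above 5 RPKTM numbered 6 of 36 for Cidec and 5 of 36 for Fitm1, so both lay at the floor in most libraries.

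Between macrophage genotypes limma called 0 of the 9 genes, where it called 0.574% of all genes between RevDKO and Control, 3.0% between RevScapTKO and RevDKO and 3.76% between RevScapTKO and Control. At an unadjusted p under 0.05 there were 3, 1 and 4 of the 9, and 1934, 2538 and 2435 of all 13947 genes. Among the 9 the lowest adjusted p was 0.16, 0.24 and 0.083. In RevScapTKO minus Control the log2 differences ran from -0.78 ± 0.39 (Fitm1) to 1.24 ± 0.41 (Cidec). Cidec was at 0 to 4.1 RPKTM in Control and 0.25 to 10.8 in RevScapTKO, with 5 of 12 libraries above the Control range.

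Hepatocyte RNA in the macrophage libraries touches this contrast. The summed hepatocyte markers ran from 46323 to 1624650 RPKTM in Control, 41890 to 99855 in RevDKO and 30594 to 822122 in RevScapTKO. With their score as a covariate, 4 genes were called in RevScapTKO minus Control by limma: Plin2 at -0.49 (adjusted p = 0.031), Plin4 at 1.297 (adjusted p = 0.015), Plin5 at 0.95 (adjusted p = 0.0037) and Cidec at 1.33 (adjusted p = 0.036). Calls over all 13947 genes rose from 524 to 1524 with that covariate. Without the 3 macrophage libraries in which Alb was 1 of the 2 highest values (Control ZT16 replicate 1, Control ZT22 replicate 1 and RevScapTKO ZT22 replicate 3), the Plin4 difference was 0.45 and that of Plin5 0.29, against 0.92 and 0.63 with them. None of the 4 genes was called there (limma adjusted p = 0.27 to 0.70). The same contrast without RevScapTKO ZT10 replicate 1 had 2 calls, Cidec and Plin5, and Plin5 was called in RevDKO minus Control without Control ZT22 replicate 3.

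**Figure D4:**
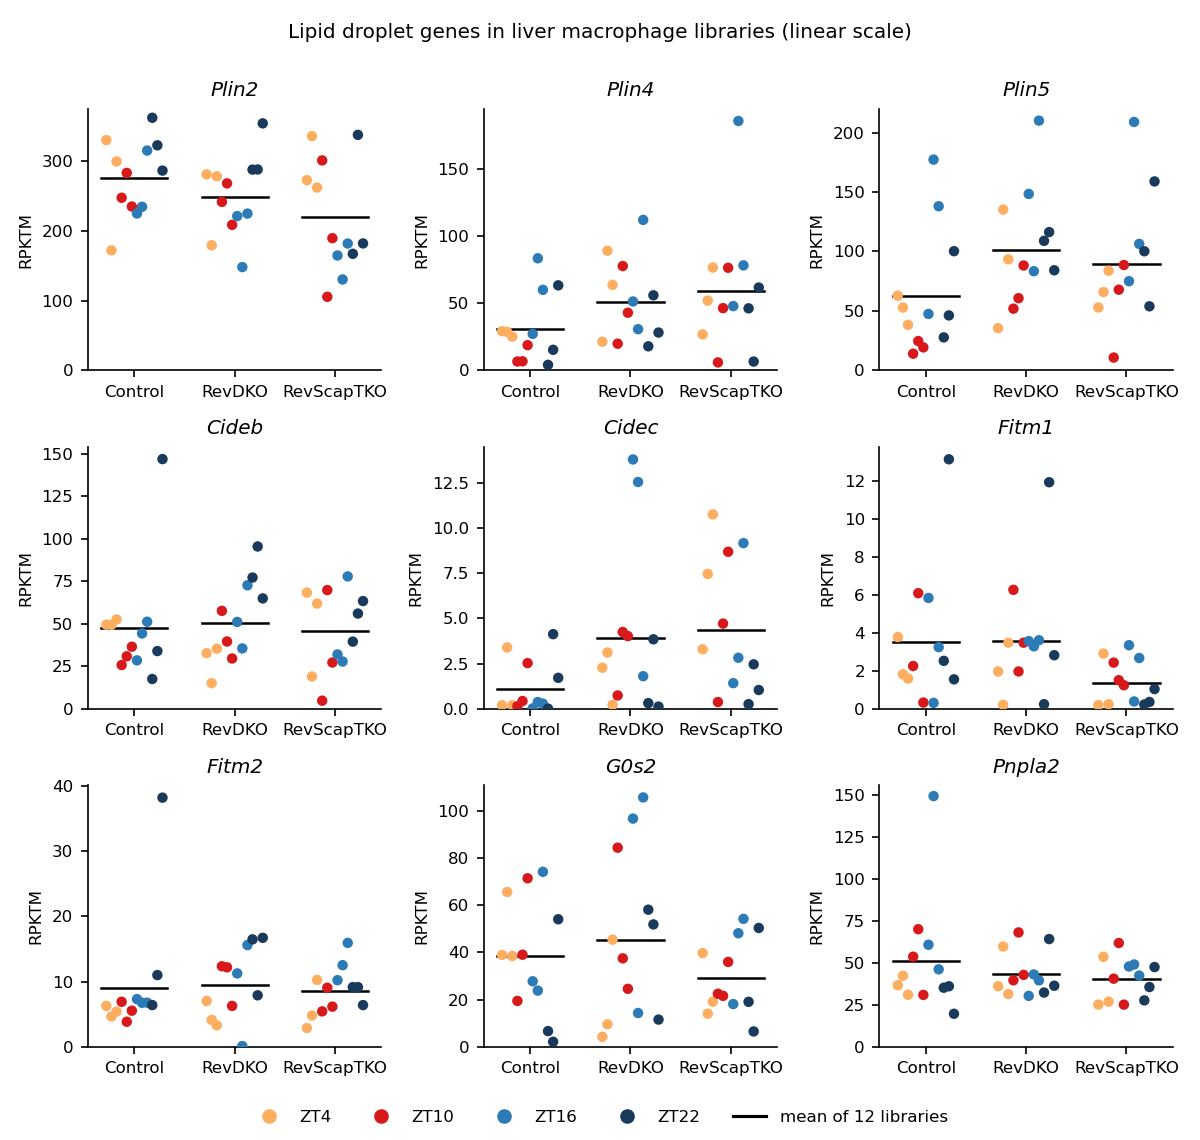
Level of the 9 tested lipid droplet genes in liver macrophage libraries (vertical axis, RPKTM, linear from 0) by genotype (horizontal axis), 1 point per library coloured by zeitgeber time, with a line at the mean of 12 libraries. Groups overlap in every panel, Plin2 has the highest level with Control values of 172 to 362 RPKTM, and single libraries at ZT22 stand above the rest for Cideb (147 RPKTM) and Fitm2 (38.2 RPKTM) in Control.

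Macrophage rhythms were called by JTK_CYCLE for Fitm2 and Pnpla2 in Control (2 of 8 expressed members, 0 once; 17.8% and 3.06% of expressed genes), for Plin2, Cideb, Cidec and G0s2 in RevDKO (4 of 9, 0 once; 25.3% and 5.71%), and for Plin2, Plin5 and Fitm2 in RevScapTKO (3 of 8, 1 once, Fitm2; 13.5% and 2.69%). The Control Fitm2 libraries at ZT22 were at 6.4, 10.99 and 38.2 RPKTM, a spread wider than the change between times, although its call held on leaving out each of the 12 libraries in turn. Control Pnpla2 was likewise led by 1 ZT16 library at 149.5 RPKTM beside 60.9 and 46.2, and its call held in 3 of 12 such cases. The RevDKO calls held in 12 cases for Cideb, 8 for G0s2, 6 for Plin2 and 5 for Cidec, and the RevScapTKO calls in 12 for Fitm2 and 4 each for Plin2 and Plin5. The peak-to-trough log2 difference of the limma 24 h terms was also fitted with the hepatocyte marker score as a covariate. In RevDKO it went from 1.32 to 0.062 for Cideb and from 0.48 to 0.65 for Plin2. For G0s2 it went from 2.02 to 1.71 and for Cidec from 1.93 to 1.86. In RevScapTKO it went from 1.46 to 0.37 for Plin5, 1.14 to 0.87 for Fitm2 and 0.91 to 0.95 for Plin2. In Control it went from 1.3025 to 0.86 for Fitm2 and 1.25 to 1.26 for Pnpla2. The cause was not tested. No gene's rhythm difference passed the limma F test in macrophages, where 0.0% of all genes passed in each of the 3 contrasts.

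In macrophages 18 of the 19 other droplet proteins were tested, with 0 called in RevDKO against Control, 1 higher and 2 lower in RevScapTKO against RevDKO, and 1 higher and 2 lower against Control. Hsd17b13 was the higher gene in both (1.13 and 1.26 on the log2 scale), and Acsl3 and Pnpla3 the lower ones. SREBP targets, 11 of 12 tested, had 0, 11 and 10 lower in the 3 contrasts, and the same counts with the hepatocyte marker score as a covariate. Over all genes 0.172%, 1.78% and 1.38% were lower, or 0.186%, 6.80% and 4.60% with the covariate. The shares higher were 0.402%, 1.23% and 2.38%, or 0.208%, 4.94% and 6.32% with the covariate. All macrophage libraries carried hepatocyte markers at a sum of 30594 RPKTM or more, and all 12 SREBP targets were lower in RevScapTKO hepatocytes, so lower levels in macrophages and lower levels in the hepatocyte RNA they carried cannot be told apart. Of 12 PPARα targets 2, 4 and 5 were lower and 0, 1 and 1 higher, or 1, 5 and 5 lower and 0, 1 and 1 higher with the covariate. Of 9 regulators 1, 0 and 0 were higher (Ppard) and 0, 2 and 1 lower, or 1, 0 and 2 higher and 0, 1 and 1 lower with the covariate.

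ScapKO libraries were described within their own tables. In ScapKO hepatocytes, whose cell type field reads liver macrophage while the titles name hepatocytes, the summed macrophage markers were 515 to 3565 RPKTM and the summed hepatocyte markers 349526 RPKTM or more, and the titles were followed. ZT22 replicate 2 stood apart in both ScapKO tables. Its Scap level was the highest, at 1006 RPKTM in hepatocytes (median 345) and 1018 in macrophages (median 652), so calls and leading levels are given with and without it. The order of levels in ScapKO hepatocytes was led by Cideb (1358 RPKTM, whose transcript overlaps Nop9), Plin2 (1069.8), G0s2 (624) and Plin5 (273), and in ScapKO macrophages by Plin2 (1502) and Pnpla2 (397). Without that replicate the means were 1387 RPKTM for Cideb, 1094 for Plin2, 652 for G0s2 and 281 for Plin5 in hepatocytes, and 1578 for Plin2 and 410.4 for Pnpla2 in macrophages, in the same order.

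Of the rhythms called in ScapKO hepatocytes, that of G0s2 had the highest ratio. Its libraries were at 124, 107 and 319 RPKTM at ZT4, at 456, 474 and 814.5 at ZT10, at 629.8, 961 and 1121 at ZT16, and at 1269, 309.9 and 899.6 at ZT22, where 309.9 is replicate 2. All ZT10 and ZT16 libraries were above all ZT4 libraries. The ratio was 4.93, or 5.91 without that replicate, with a JTK_CYCLE adjusted p of 0.0013 and 0.00014, and the limma F test gave an adjusted p of 0.036. Plin5 was also called, from 221, 176 and 212 RPKTM at ZT10 to 460.4, 403 and 384 at ZT16, a ratio of 2.05 (JTK_CYCLE adjusted p = 0.032, or 0.0041 without replicate 2), a call that held in 6 of 12 cases of leaving out a library. Fitm2 was the third, with a ratio of 1.61 that dropped below 1.5 without replicate 2, so that it was no longer called.

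That makes 3 of 9 expressed members in ScapKO hepatocytes (17.8% of expressed genes), or 0 with the series entered once (5.52%). In ScapKO macrophages 3 of 9 were called, Plin5, Cideb and Fitm2 (19.9% of expressed genes), or 1 once, Fitm2 (3.97%). Macrophage Fitm2 was at 14.1, 19.0 and 9.8 RPKTM at ZT10 and 29.7, 28.1 and 25.1 at ZT22. Its JTK_CYCLE adjusted p was 9.2e-05, or 0.00026 without replicate 2, and that of Cideb was 0.0013 or 0.0041. Plin5 there was led at ZT22 by replicate 2 (27.3, 239.8 and 125.5 RPKTM) and was not called without it (JTK_CYCLE adjusted p = 0.20). Replicate 2 also held the lowest Fitm1 of each ScapKO table, 3.2 and 0.82 RPKTM, and the lowest Plin2, 806 and 661 RPKTM.

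**Figure D5:**
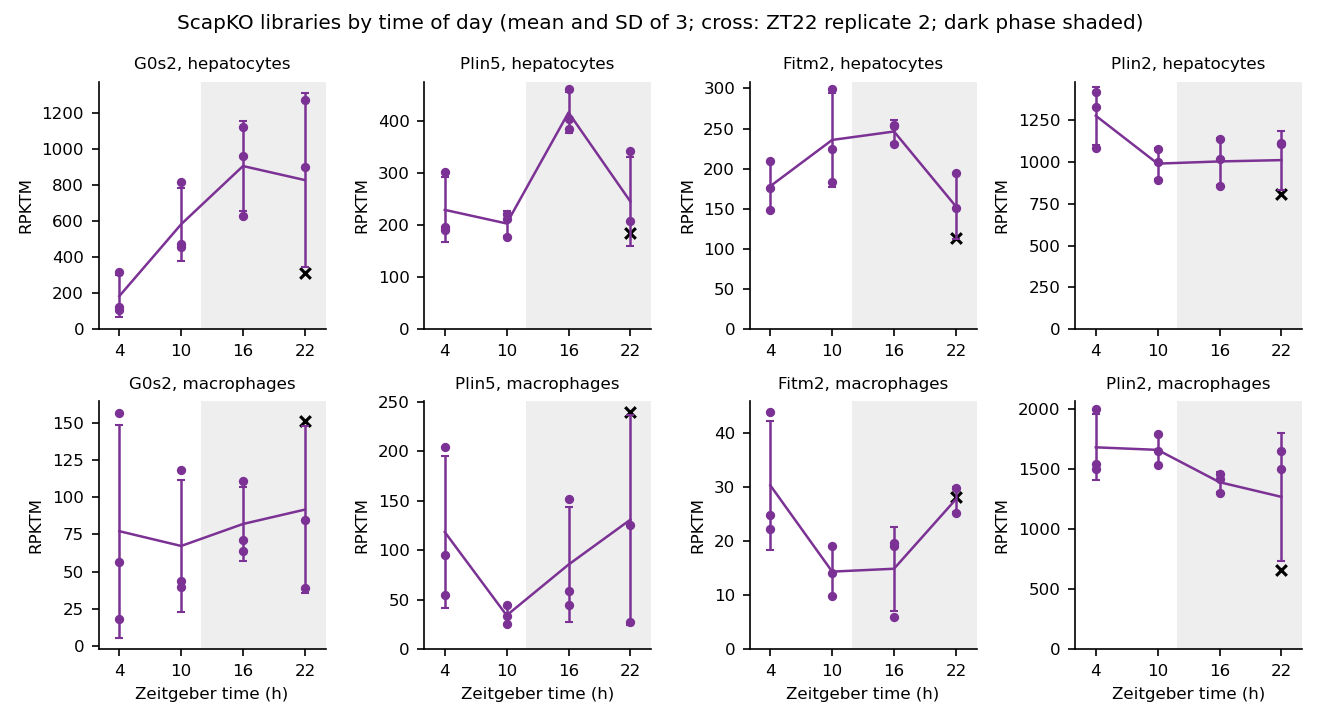
Level (vertical axes, RPKTM) of G0s2, Plin5, Fitm2 and Plin2 in ScapKO hepatocytes (top) and macrophages (bottom) against zeitgeber time (horizontal axis, hours; dark phase shaded), with points for libraries, a cross for ZT22 replicate 2, and the mean and SD of 3. Hepatocyte G0s2 runs from 107 to 319 RPKTM at ZT4 to 629.8 to 1121 at ZT16, and the cross lies at 309.9.

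Genes whose log2 levels ran most alike over the 36 hepatocyte libraries of 3 genotypes were listed as a description, since the libraries share genotype, time and the amount of macrophage RNA. For Fitm1 these were Ech1 (Pearson r = 0.90), Nat8 (0.90) and Eci1 (0.89), of which Ech1 and Eci1 encode enzymes that move double bonds in fatty acid oxidation. For G0s2 they were Angptl8 (0.85), an inhibitor of lipoprotein lipase activity made after feeding, Spr (0.85) and Mpst (0.83). Plin2 was followed by Hmgcs1 (0.74), an enzyme of cholesterol synthesis, and Chn2 (0.73). Fitm2 was followed by Ruvbl2 (0.84), Slc25a20 (0.78), the carnitine carrier of mitochondria, and Chp1 (0.77).

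For Plin5 the closest were Slc45a3 (0.82), Dpy19l1 (0.80) and Slc35g1 (0.79), for Plin4 Slc35g1 (0.77), Jade2 (0.77) and 1700071M16Rik (0.76), for Cidec Zfp655 (0.65), Nudt18 (0.65) and Osbpl3 (0.64), for Pnpla2 Tubgcp2 (0.80), Rnh1 (0.77) and Lmo7 (0.76), and for Cideb Nop9 (0.97), Dad1 (0.82) and Mvb12a (0.76). Among the members themselves, Plin4 and Plin5 had an r of 0.74 over these 36 libraries and 0.83 over the 36 macrophage libraries. In hepatocytes Fitm1 and Fitm2 had 0.71, Fitm1 and G0s2 0.65, and Plin2 and Plin4 -0.65.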

How the data were processed

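Bulk RNA-Seq of isolated hepatocytes and liver macrophages was analysed from 4 deposited tables, 96 libraries in all. The authors aligned reads to mm9 with STAR and counted RefSeq transcripts with HOMER (versions not given in the sources used here). The deposited values are RPKM × 10 (RPKTM), quantile-normalized by the authors within each table, so they are relative levels, keep no counts and cannot be set side by side between tables.

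Samples were grouped by title. Each gene was its transcript with the highest mean. Genes with at least 3 libraries above 5 RPKTM entered limma 3.58.1 (R 4.3.3; empirical Bayes with a mean-variance trend) on log2(RPKTM + 1), with 1 mean per genotype and time, adjusted by Benjamini-Hochberg over all genes. Fold changes are on the log2(RPKTM + 1) scale, which understates changes of low genes. JTK_CYCLE was written in Python 3.11.15 after the methods of the study, with periods of 18 h and 24 h, the exact p multiplied by the patterns tried, and at least 2 libraries above 5 RPKTM. Both were also run on simulated data, with outcomes that are not reported here. The marker covariate was the mean log2 level of 12 macrophage markers in hepatocytes and of 10 hepatocyte markers in macrophages. Motifs were searched in RefSeq promoters (250 bases before to 50 after the start, GRCm38.p6). Alternatives were pseudocounts of 0.1 and 10, no filter, all transcripts, a replicate block, only the compared genotypes, the covariate, left-out libraries, and for rhythms the series entered once, a ratio over 2 and a limma F test. Named genes were the 10 members, the 3 genes per direction with the smallest adjusted p of each list, the 3 most alike genes per member, and the targeted genes. Some genes that this rule names are not reported here. The members and lists were chosen with earlier results of these data known.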

Additional observations from a re-analysis of the deposited data

How the results depend on the processing

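Each library left out in turn, pseudocounts of 0.1 and 10, no filter, all transcripts, a replicate block, only the compared genotypes, the other cell type's marker score and, chosen after seeing the data, removal of Alb-led macrophage libraries and the score in list counts were tried. Counts of members stayed within 1.5 times in 389 cases and moved in 51. Single log2 differences kept their sign and call in 1092 cases, lost the call in 18, gained it in 18 and changed sign in 24. Mean-level calls in hepatocytes went from 1 to 2 (only 2 genotypes) and 1 to 2 (leave-one-out) for RevDKO minus Control, from 3 to 1 (covariate) and 2 to 4 (leave-one-out) for RevScapTKO against RevDKO, and from 5 to 1 (covariate) and 5 to 7 (leave-one-out) against Control. Calls without the Alb-led hepatocyte libraries are not given, since that fit left 1 library in some groups. In macrophages leave-one-out gave 0 to 1 (RevDKO minus Control, Plin5 without Control ZT22 replicate 3) and 0 to 2 (RevScapTKO against Control), where the covariate gave 4. Of 198 same-numbered pairs of libraries, 22.7% in hepatocytes and 42.9% in macrophages had correlated deviations over 0.1 (medians 0.019 and 0.083, against -0.011 and -0.040 for other pairs), so not every pair did and the numbers were not taken as pairing; the replicate block raised all-gene macrophage calls from 80 to 167 in RevDKO and from 524 to 836 in RevScapTKO against Control, gave 1 call, Cidec, in RevScapTKO against Control macrophages, changed no other mean-level call, and put the limma rhythms of Plin5 in RevDKO (adjusted p = 0.0495) and Fitm1 in RevScapTKO hepatocytes (adjusted p = 0.048) past the threshold. Entering the series once left 1, 2, 0 and 0 rhythmic members in Control, RevDKO, RevScapTKO and ScapKO hepatocytes and 0, 0, 1 and 1 in macrophages. The limma F test left 0, 0 and 1 in RevDKO, RevScapTKO and ScapKO hepatocytes and 0 in each macrophage group, and a ratio over 2 left 1 in RevScapTKO hepatocytes. Leave-one-out gave 0 to 3 in RevScapTKO hepatocytes and 1 to 4, 2 to 4 and 1 to 4 in Control, RevDKO and RevScapTKO macrophages. Uncalled log2 differences changed sign with the covariate for Cideb (0.085), Fitm1 (0.40) and Fitm2 (0.0013) in RevScapTKO minus RevDKO hepatocytes and for Cideb (0.21) and G0s2 (0.13) in RevScapTKO minus Control macrophages, and without Alb-led libraries for Plin4 (-0.10) and Pnpla2 (0.077) in hepatocytes. Leave-one-out ranges crossed 0 for Pnpla2 in hepatocytes (-0.12 to 0.074) and, in macrophages, for Cideb (-0.32 to 0.13), Fitm2 (-0.046 to 0.25) and G0s2 (-0.41 to 0.11). The causes were not tested. With no counts deposited, what depth limits is unknown.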
